A study of Mus musculus with 15 samples.

Results

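The genes described here handle iron and heme in mouse BMDMs, macrophages derived from bone marrow cells in culture. They are Tfrc, Slc11a1, Slc11a2, Slc48a1, Hmox1, Fth1, Ftl1, Slc40a1, Cp and Hamp. Each of the 10 symbols was matched to a single Ensembl gene identifier among the 53465 genes of the count matrix. In total 15 libraries were sequenced, in 5 groups with 3 libraries each. BMDMs were left without cytokine (control) or were given, for 24 h, IL-4, IL-4+IL-6, IL-13 or IL-6+IL-13. The dose of IL-4 was 10 ng/ml, and that of IL-6 or IL-13 was 40 ng/ml. No group received IL-6 alone. All groups, controls included, came from marrow kept for 7 days in M-CSF at 20 ng/ml, a growth factor that drives macrophage formation. According to the methods, marrow was taken from mice of 8 to 12 weeks, although the RNA sequencing paragraph does not restate the mice. The comparisons answer how IL-4 and IL-13 changed these genes against control, and what IL-6 changed when it was added to either.

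Library totals were between 17001352 and 18918686 counts. The 6 macrophage markers were detected in every group, with summed levels between 4617 and 5642 normalized CPM (counts scaled to the library size in CPM, and further with the TMM factors of edgeR). Single macrophage markers moved within that sum, as Mertk was at 143 ± 12.2 normalized CPM in control and at 8.27 to 17.9 as means of the cytokine groups, and Fcgr1 at 155 ± 2.90 in control, 101 ± 1.23 with IL-4 alone and 479 ± 71.4 with IL-6+IL-13 (n = 3). Markers of other marrow cells were measured in the same libraries. The 7 granulocyte markers summed to 382 to 456 normalized CPM in control and to at most 2.04 in every other group. The 4 megakaryocyte and platelet markers summed to 360.5 to 406 in control, 70.2 to 89.7 in IL-4 and IL-13, and 175 to 422 in the groups with IL-6. In the groups with IL-6 this sum was almost wholly Pf4, at 97.4 ± 8.26 normalized CPM in control (n = 3), 235 ± 69.9 in IL-4+IL-6 and 390.1 ± 40.7 in IL-6+IL-13, while Ppbp, Itga2b and Gp9 were at 166, 114 and 9.87 in control and at most at 4.16, 1.72 and 0.142 as means of any cytokine group. The 3 stromal markers summed to 15.2 to 19.5 in control and to at most 0.23 elsewhere. The 8 erythroid markers summed to 3.65 to 4.88 in control and to at most 0.737 elsewhere. Only 2 of these 8 had more than 3 counts in each control library. The 3 B cell markers summed to 4.43 to 5.10 in control and to at most 0.901 elsewhere. For the 3 basophil and mast cell markers these sums were 4.88 to 5.84 and at most 0.236. The cells that held these transcripts were not identified, their part in the differences from control was not tested, and in such bulk RNA fewer cells of a type and less RNA per cell cannot be told apart. Replicate 2 of IL-4+IL-6 and replicate 1 of IL-13 stood apart from their groups. The mean chi-square per gene was 26.4 and 46.7 between the first of these and its replicates, and 22.4 and 17.1 between the second and its replicates, against 2.68 to 7.96 for all other pairs. Where leaving them out gave or ended a call, the value without them stands beside the result.

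Macrophages take up iron bound to transferrin through the transferrin receptor and recover much more of it by breaking down the heme of engulfed red cells. Iron that is not needed is stored inside a shell of ferritin or leaves the cell through ferroportin, which the hormone hepcidin removes from the surface. Several of these messages carry an iron-responsive element, a hairpin bound by iron regulatory proteins when iron is scarce. Bound near the start of the message, as in the ferritins and ferroportin, the proteins block translation, and bound behind the coding part of Tfrc they protect the message from decay. A search of annotated untranslated regions on the strand of the message (GENCODE, build GRCm38) looked for a C, 5 bases, the loop CAGTGN and 5 bases that pair with the first 5, wobble pairs allowed. The hairpin was found in the 5′ UTR of 3 of the genes described here and at 4 places in the 3′ UTR of Tfrc. It is held by the 5′ UTR of 0.148% of 20971 genes and by the 3′ UTR of 0.661% of 21769 genes. The sites are shown 5′ to 3′ because they are the feature that storage, export and uptake genes share, with the loop in capitals.
Fth1, 5′ UTR, chr19:9982732-9982760, plus strand: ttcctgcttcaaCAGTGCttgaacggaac
Ftl1, 5′ UTR, chr7:45459779-45459807, minus strand: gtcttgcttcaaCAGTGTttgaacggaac
Slc40a1, 5′ UTR, chr1:45925465-45925493, minus strand: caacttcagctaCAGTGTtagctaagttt
Tfrc, 3′ UTR, chr16:32631219-32631247, plus strand: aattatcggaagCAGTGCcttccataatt
Tfrc, 3′ UTR, chr16:32631598-32631626, plus strand: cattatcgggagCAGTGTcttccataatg
Tfrc, 3′ UTR, chr16:32631663-32631691, plus strand: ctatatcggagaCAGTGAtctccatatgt
Tfrc, 3′ UTR, chr16:32631710-32631738, plus strand: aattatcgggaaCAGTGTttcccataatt
Both ferritin sites share the stem next to the loop, while the ferroportin site has another stem around the same kind of loop. A match describes the sequence, and binding of a protein was not measured. The pattern is strict and misses elements of another shape, so a gene without a match may still hold one.

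Fth1 was by far the most abundant of these genes when levels were compared per length of transcript, in FPKM (fragments scaled to transcript length and library size). Its level was 15040 ± 422 FPKM (SD, n = 3) in control, against 574 ± 13.9 for Ftl1 and 412 ± 8.72 for Hmox1. In control there followed Slc11a1 with 112 ± 3.31 FPKM and Slc48a1 with 107 ± 1.49, then Tfrc with 28.5 ± 0.65, Slc40a1 with 11.2 ± 1.18 and Slc11a2 with 11.0 ± 0.188. Slc40a1 and Slc11a2 overlapped between libraries, and Slc11a1 and Slc48a1 nearly touched. Cp was at 0.505 ± 0.0861 FPKM, from 71 to 93 counts per control library, and Hamp, listed at 0 in 2 of the 3 control libraries, was close to the limit of detection. The order was different in the cytokine groups. With IL-4 alone, Slc48a1 at 164 FPKM and Tfrc at 46.1 stood above Slc11a1 at 20.7. Slc40a1 at 0.0836 was below Cp at 0.310 there. With IL-13 alone, Slc48a1 at 143 stood above Slc11a1 at 36.1, while Slc40a1 at 0.243 and Cp at 0.270 overlapped. In IL-4+IL-6 libraries Hmox1, at 1064 ± 76.0 FPKM, stood above Ftl1, at 406 ± 96.7. Tfrc, at 136 ± 14.2 FPKM, was level with Slc48a1, at 134 ± 10.1, and above Slc11a1, at 6.95 ± 1.04. Slc40a1 was at 0.038 ± 0.0241 FPKM there, below Cp at 0.282 ± 0.142.

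**Figure D1:**
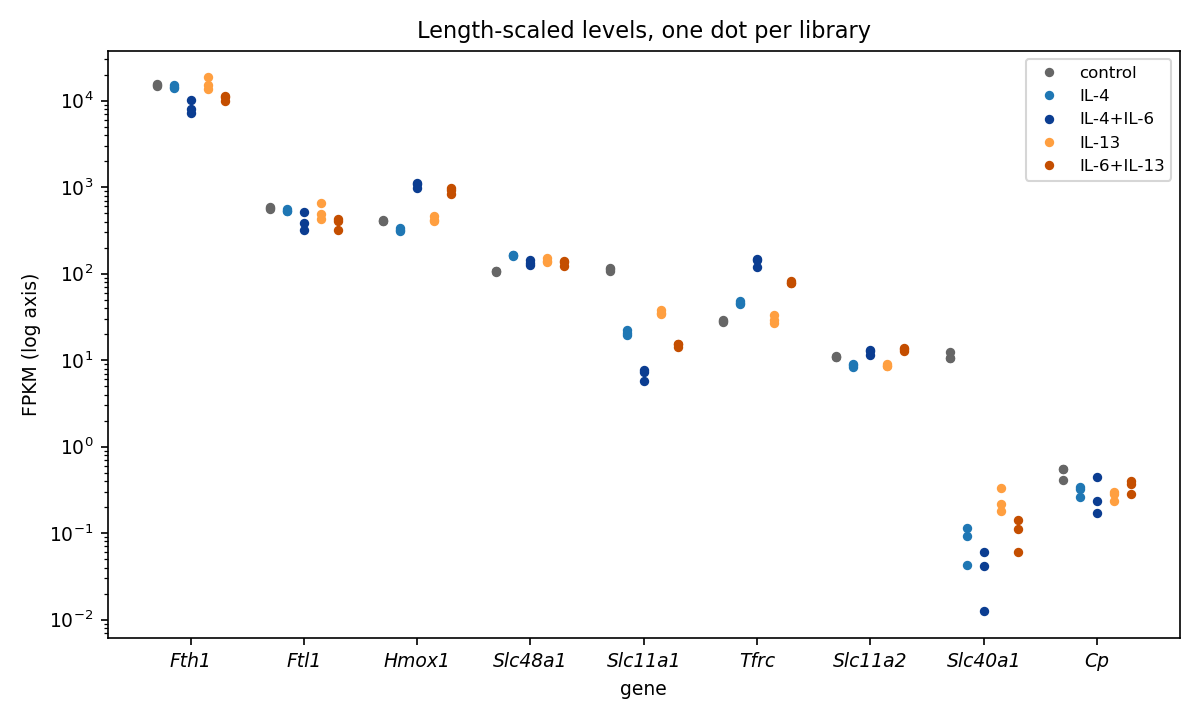
Deposited FPKM values (log axis) of 9 genes, one dot per library, with colors for the 5 groups. Fth1 lay above every other gene in all libraries, and Slc40a1 was at 10.5 to 12.6 FPKM in control and at most at 0.33 in the libraries with cytokine.

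Tfrc encodes the transferrin receptor, which brings iron-loaded transferrin into endosomes (chr16:32608920-32632794, plus strand, GRCm38). Its level was 169, 173 and 163 normalized CPM in the control libraries, 282, 271 and 294 in IL-4, 945, 828 and 903 with IL-4+IL-6, 177, 199 and 162 in IL-13, and 525, 491 and 501 in IL-6+IL-13. Control and IL-13 overlapped, IL-4 lay above both, and the groups with IL-6 lay above all of these without overlap. IL-4 raised Tfrc 1.67-fold over control (log2 fold change 0.74 ± 0.0737 SE, edgeR quasi-likelihood test, adjusted p = 1.25e-07). With IL-13 the log2 fold change was 0.09, with an interval of 2 SE from -0.06 to 0.23. IL-6 raised Tfrc 3.16-fold over IL-4 (log2 fold change 1.66 ± 0.0746 SE, edgeR adjusted p = 1.09e-11) and 2.83-fold over IL-13 (1.499 ± 0.0746 SE, edgeR adjusted p = 8.08e-11). The difference between both IL-6 effects was -0.16, with an interval from -0.37 to 0.04.

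Slc11a2 encodes DMT1, which carries iron out of the endosome after transferrin uptake (chr15:100387898-100425072, minus strand). Its level was 65.9, 68.9 and 65.9 normalized CPM in control, 55.7, 51.8 and 57.1 in IL-4, 85.7, 81.1 and 84.2 with IL-4+IL-6, 54.1, 55.9 and 53.1 in IL-13, and 82.5, 89.8 and 88.7 in IL-6+IL-13. All libraries with IL-4 or IL-13 alone lay below control, and all libraries with IL-6 lay above it. Slc11a2 fell by 0.29 on the log2 scale with IL-4 (edgeR adjusted p = 0.00068) and by 0.30 with IL-13 (edgeR adjusted p = 0.000565). With IL-6 it rose 1.52-fold over IL-4 (log2 fold change 0.61 ± 0.0626 SE, edgeR adjusted p = 4.28e-07) and 1.6-fold over IL-13 (0.68 ± 0.0625 SE, edgeR adjusted p = 2.12e-07). Without a filter on low counts, the fall with IL-4 had an adjusted p of 0.0578 in edgeR. Exons of Slc11a2 overlap those of Gm5475 on the other strand, which had 6 counts in all libraries together.

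Slc11a1 encodes NRAMP1, a metal transporter of the phagosome membrane (chr1:74375195-74386062, plus strand). Its level was 384, 414 and 397 normalized CPM in control, 71.1, 81.4 and 75.6 in IL-4, 29.9, 23.9 and 27.8 with IL-4+IL-6, 141, 127 and 124 in IL-13, and 58.1, 53.5 and 59.0 in IL-6+IL-13. The 5 groups did not overlap, with control highest, then IL-13, IL-4, IL-6+IL-13 and IL-4+IL-6. Slc11a1 fell 5.24-fold with IL-4 (log2 fold change -2.39 ± 0.083 SE, edgeR adjusted p = 2.13e-13) and 3.05-fold with IL-13 (-1.61 ± 0.0804 SE, edgeR adjusted p = 2.96e-11). Addition of IL-6 lowered it 2.79-fold below IL-4 (log2 fold change -1.48 ± 0.0856 SE, edgeR adjusted p = 2.82e-10) and 2.30-fold below IL-13 (-1.199 ± 0.0818 SE, edgeR adjusted p = 4.8e-09). In IL-4+IL-6 it was 14.6-fold below control. Thus both transporters of the family moved in opposite directions when IL-6 was added, with Slc11a2 up and Slc11a1 down.

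Slc48a1 encodes HRG1, which moves heme from the phagolysosome into the cytosol (chr15:97778520-97792692, plus strand). Its level was 271, 283 and 273 normalized CPM in control, 437, 438 and 434 in IL-4, 407, 375 and 363 with IL-4+IL-6, 406, 358 and 361 in IL-13, and 376, 331 and 390.5 in IL-6+IL-13. Every library with a cytokine lay above control. Slc48a1 rose 1.58-fold with IL-4 (log2 fold change 0.66 ± 0.0707 SE, edgeR adjusted p = 3.03e-07), 1.36-fold with IL-13 (0.44 ± 0.0706 SE, edgeR adjusted p = 3.83e-05), 1.39-fold with IL-4+IL-6 and 1.33-fold with IL-6+IL-13. IL-6 lowered it slightly below IL-4 (log2 fold change -0.19 ± 0.0704 SE, edgeR adjusted p = 0.0378). This call was lost without IL-4 replicate 1 (edgeR adjusted p = 0.0642), replicate 2 (0.0587) or replicate 3 (0.0504) and without IL-4+IL-6 replicate 3 (0.0865). Over IL-13 the IL-6 difference was -0.04, with an interval from -0.18 to 0.11. Its exons overlap those of Hdac7 on the other strand, which had 3813 counts against 99604 of Slc48a1.

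Hmox1 encodes heme oxygenase 1, the inducible enzyme that opens heme and frees its iron (chr8:75093621-75100589, plus strand). Its level was 673, 713 and 687 normalized CPM in control, 548, 541 and 592 in IL-4, 2017, 2171 and 1748 with IL-4+IL-6, 814, 713 and 697 in IL-13, and 1778, 1486 and 1685 in IL-6+IL-13. The groups with IL-6 were far above the others, and IL-4 alone was below control. Hmox1 fell by 0.30 on the log2 scale with IL-4 (edgeR adjusted p = 0.00477), while its log2 fold change with IL-13 was 0.10, with an interval from -0.07 to 0.27. IL-6 raised Hmox1 3.53-fold over IL-4 (log2 fold change 1.82 ± 0.0875 SE, edgeR adjusted p = 2.505e-11) and 2.23-fold over IL-13 (1.15 ± 0.0859 SE, edgeR adjusted p = 1.51e-08). The rise was smaller with IL-13 than with IL-4 by 0.67 on the log2 scale (interaction -0.67 ± 0.12 SE, edgeR adjusted p = 0.00157), and by 0.52 without the libraries that stood apart (interaction -0.52, edgeR adjusted p = 0.00021). Without IL-6, Hmox1 was 1.32-fold higher with IL-13 than with IL-4 (log2 fold change 0.40 ± 0.0852 SE, edgeR adjusted p = 0.00375). IL-6+IL-13 differed from IL-4+IL-6 by a log2 fold change of -0.26 ± 0.0848 SE (edgeR adjusted p = 0.0258), with overlapping libraries. That call was lost without IL-4+IL-6 replicate 1 (edgeR adjusted p = 0.0789) or replicate 2 (0.0852), without IL-6+IL-13 replicate 2 (0.156) or replicate 3 (0.0518) and in a fit of both groups alone (0.107).

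**Figure D2:**
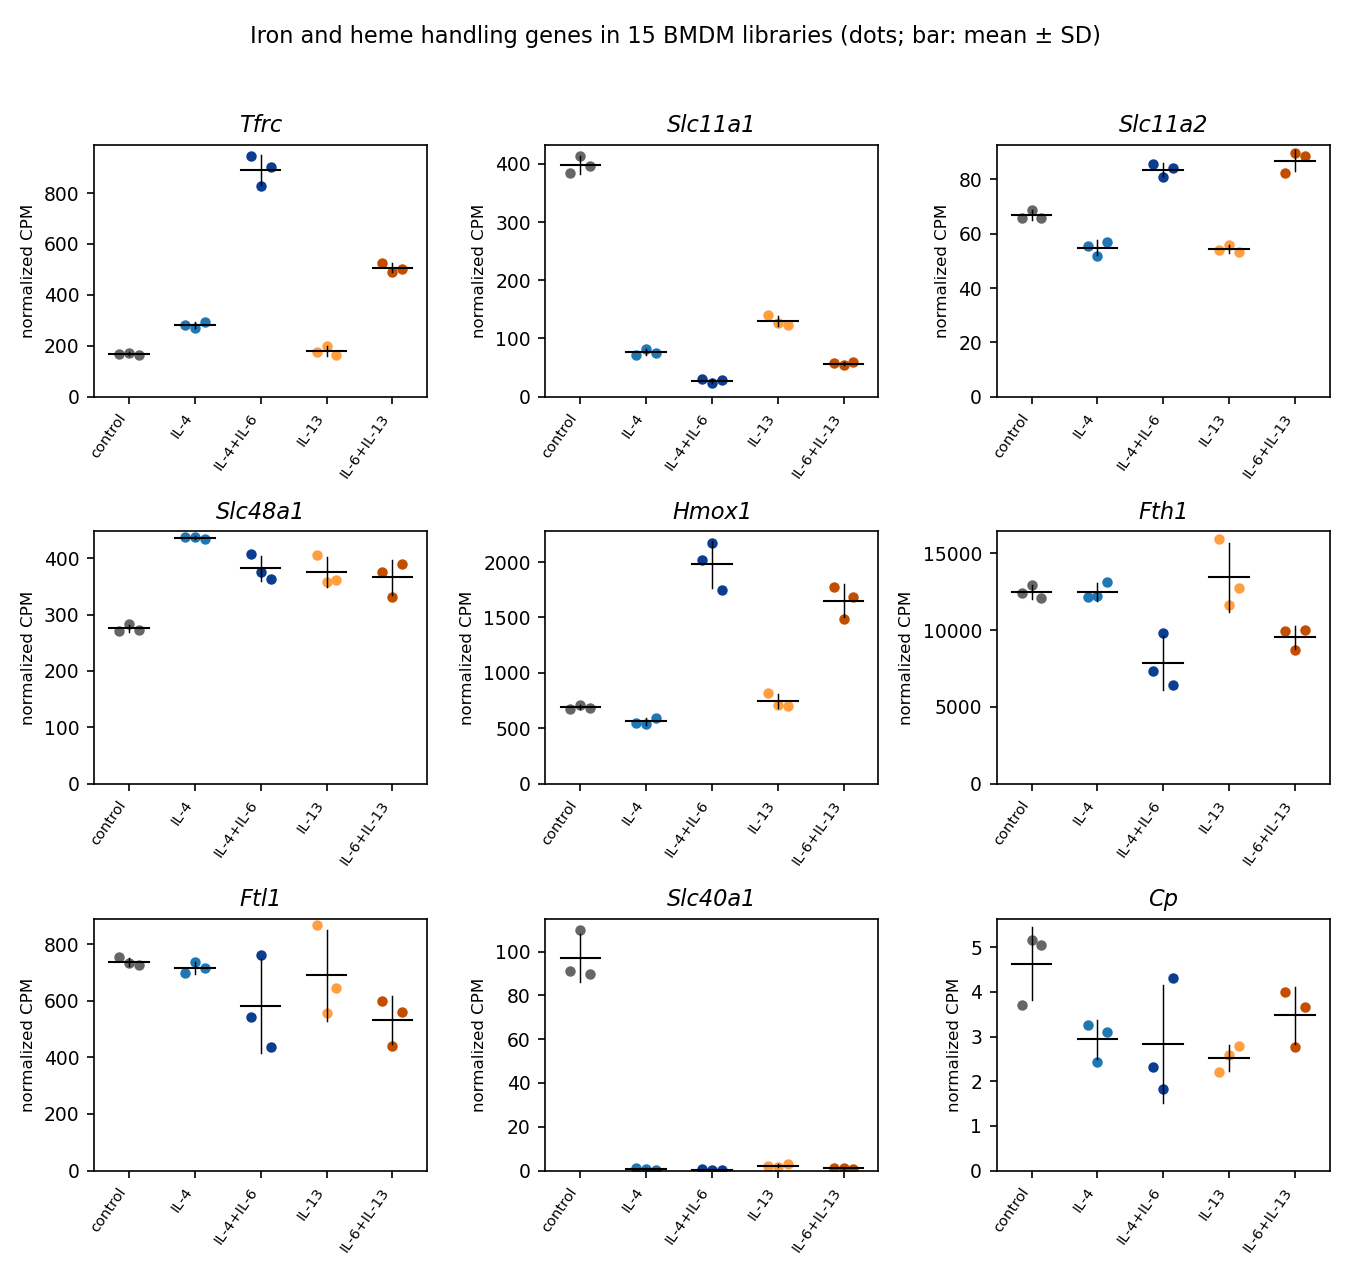
Normalized CPM of 9 genes (linear axes from 0) in the 5 groups, with a dot for each library, a horizontal bar for the mean and a vertical bar for the SD (n = 3). Tfrc and Hmox1 were highest in IL-4+IL-6, Slc11a1 was lowest there, and Slc40a1 was at 89.9 to 110 in control and at most at 2.89 in the other groups.

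Fth1 and Ftl1 encode the heavy and the light subunit of ferritin, and the heavy one oxidizes iron as it enters the shell. Fth1 (chr19:9980598-9985098, plus strand) was at 12418, 12947.5 and 12068 normalized CPM in control, 12133, 12190.4 and 13135 in IL-4, 7329.7, 9808 and 6432 with IL-4+IL-6, 15929.5, 11608.5 and 12755 in IL-13, and 9914, 8685 and 10021 in IL-6+IL-13. All libraries with IL-6 lay below all libraries without it, and those of control, IL-4 and IL-13 overlapped. Fth1 made up 1.199% to 1.61% of all counts without IL-6 and 0.629% to 0.974% with it. IL-6 lowered Fth1 1.59-fold below IL-4 (log2 fold change -0.67 ± 0.127 SE, edgeR adjusted p = 0.000377) and 1.41-fold below IL-13 (-0.49 ± 0.126 SE, edgeR adjusted p = 0.00716). Without the libraries that stood apart these values were -0.87 (edgeR adjusted p = 1.83e-11) and -0.36 (2.8e-05), and the difference between both IL-6 effects, 0.17 with all libraries (edgeR adjusted p = 0.708), was 0.51 (0.000104). The log2 fold change of Fth1 was 0.00 with IL-4 and 0.11 with IL-13 against control, with intervals from -0.25 to 0.25 and from -0.15 to 0.36. With a trend in gene length and GC content the former was -0.23 (edgeR adjusted p = 0.00863), and without a filter on low counts the latter was 0.17 (0.0142). IL-13 against IL-4 gave 0.11 for Fth1 (interval from -0.15 to 0.36), 0.23 with that trend (edgeR adjusted p = 0.0386) and -0.0425 without both libraries that stood apart (0.626). It fell 1.31-fold in IL-6+IL-13 against control (edgeR adjusted p = 0.0128), a call lost without IL-6+IL-13 replicate 2 (0.0607). IL-6+IL-13 against IL-4+IL-6 gave 0.28 (edgeR adjusted p = 0.104), and 0.47 without IL-4+IL-6 replicate 2 (0.00111). It was also called with library totals (0.34, edgeR adjusted p = 0.0242), without a filter (0.31, 2.41e-06) and with the trend in length and GC content (0.42, 0.000169).

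Ftl1 (chr7:45457944-45459884, minus strand) was at 753, 732 and 725 normalized CPM in control, 697, 738 and 714 in IL-4, 544, 763 and 438 with IL-4+IL-6, 868, 557 and 644 in IL-13, and 598, 438 and 559.6 in IL-6+IL-13. The highest libraries of IL-4+IL-6 and of IL-13 were again those that stood apart, for both subunits. With all libraries Ftl1 fell against control in IL-6+IL-13 (1.38-fold, log2 fold change -0.47 ± 0.169 SE, edgeR adjusted p = 0.0224), and this call was lost without control replicate 1 (0.0561) or IL-6+IL-13 replicate 2 (0.112). IL-6 gave a log2 fold change of -0.30 over IL-4 (edgeR adjusted p = 0.173) and of -0.37 over IL-13 (0.124). Without IL-4+IL-6 replicate 2 the former was -0.56 (edgeR adjusted p = 0.00368), while without IL-13 replicate 1, which stood apart, the latter was -0.18 (0.435) and without IL-13 replicate 2 it was -0.52 (0.0431). Over IL-13 the value was also called with library totals (-0.44, edgeR adjusted p = 0.0432), without a filter (-0.36, 1.72e-05) and with a trend in gene length and GC content (-0.40, 0.0137), but not without both libraries that stood apart (-0.18, 0.127). Against control, IL-4+IL-6 gave -0.34 for Ftl1 (edgeR adjusted p = 0.0789), and -0.56 without its replicate 2 (0.00179). This value was also called with upper-quartile factors (-0.41, edgeR adjusted p = 0.0382), library totals (-0.499, 0.00799), no filter on low counts (-0.296, 0.000218) and a trend in gene length and GC content (-0.53, 0.000509). The log2 fold change of Ftl1 against control was -0.04 with IL-4, with an interval from -0.38 to 0.30, and -0.10 with IL-13, with an interval from -0.43 to 0.24. Without both libraries that stood apart, IL-13 gave -0.26 against control (edgeR adjusted p = 0.0176) and -0.26 against IL-4 (0.031), where all libraries gave -0.06 against IL-4 (0.867). Between IL-6+IL-13 and IL-4+IL-6, Ftl1 gave -0.13, with an interval from -0.47 to 0.21. Without both libraries that stood apart, the difference between the IL-6 effects on Ftl1 was 0.38 (edgeR adjusted p = 0.048), where all libraries gave -0.07. A trend in gene length and GC content also brought the change on addition of IL-6 to IL-4 past the threshold (log2 fold change -0.32, edgeR adjusted p = 0.0323), as did library totals (-0.41, 0.0438) and no filter (-0.33, 6.36e-05).

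Per length, the ratio of heavy to light subunit was 25.5, 27.4 and 25.8 in the control libraries and 26.9, 25.6 and 28.5 in IL-4. It was 20.9, 19.9 and 22.7 with IL-4+IL-6, where it lay below all other libraries. In IL-13 the ratio was 28.4, 32.2 and 30.7, and in IL-6+IL-13 25.7, 30.7 and 27.7. Ferritin has many pseudogenes, so its reads can be split between near-identical copies. Ftl1-ps1, which carries the same hairpin as Ftl1, had 3.38% to 4.23% of the counts of Ftl1 in each library.

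Slc40a1 encodes ferroportin, the exporter of iron from cells (chr1:45908068-45926523, minus strand). Its level was 91.2, 110 and 89.9 normalized CPM in control, 1.02, 0.83 and 0.382 in IL-4, 0.567, 0.412 and 0.115 with IL-4+IL-6, 1.93, 1.58 and 2.89 in IL-13, and 1.04, 1.30 and 0.556 in IL-6+IL-13. Every library with IL-4 or IL-13 was far below every control library, and those of the 4 cytokine groups lay within the low range of 2 to 56 counts per library. Slc40a1 fell 129-fold with IL-4 (log2 fold change -7.01 ± 0.249 SE, edgeR adjusted p = 2.82e-13) and 45.1-fold with IL-13 (-5.49 ± 0.215 SE, edgeR adjusted p = 1.51e-12). It was 260-fold below control in IL-4+IL-6 and 99.4-fold below control in IL-6+IL-13. At such low counts the SE values of these falls are approximate and can be too small. Only 0.136% of all genes tested had a wider range of group means than Slc40a1. Beside this fall stands that of granulocyte, stromal, erythroid, B cell, and basophil and mast cell marker RNA, given above. Ppbp, Itga2b and Gp9 fell between the same groups as well. The part of such RNA in the level of Slc40a1 in control was not tested.

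Among the low levels that remained, IL-13 left more Slc40a1 than IL-4 (2.86-fold, log2 fold change 1.52 ± 0.354 SE, edgeR adjusted p = 0.00796). The call was lost without IL-4 replicate 3 (edgeR adjusted p = 0.0538) or IL-13 replicate 3 (0.0619). IL-6 lowered Slc40a1 further below IL-13 (2.21-fold, log2 fold change -1.14 ± 0.337 SE, edgeR adjusted p = 0.0179), which was lost without IL-13 replicate 3 (0.115) or IL-6+IL-13 replicate 3 (0.0933). Below IL-4 the value was similar in size (-1.01 ± 0.523 SE) and did not pass the test (edgeR adjusted p = 0.139), while DESeq2 gave an adjusted p of 0.0429 and edgeR without a filter on low counts one of 0.0321. With single libraries left out this value ranged from -1.51 to -0.61 and was never called. Slc40a1 was higher in IL-6+IL-13 than in IL-4+IL-6 (log2 fold change 1.39 ± 0.496 SE, edgeR adjusted p = 0.0422), with overlapping libraries, and this was lost without IL-4+IL-6 replicate 2 (0.0674) or replicate 3 (0.132) and without IL-6+IL-13 replicate 1 (0.0913) or replicate 2 (0.178). It was lost as well with a replicate block (edgeR adjusted p = 0.0552), in a fit of both groups alone (0.0917) and with a trend in gene length and GC content (0.0551).

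Cp encodes ceruloplasmin, a copper enzyme that oxidizes iron as it leaves the cell (chr3:19957054-20009145, plus strand). Its counts were 71, 93 and 90 in control, 61, 44 and 57 in IL-4, 41, 31 and 75 with IL-4+IL-6, 41, 46 and 54 in IL-13, and 69, 51 and 66 in IL-6+IL-13. Cp was low in all groups, and replicate 3 of IL-4+IL-6 was inside the control range. Cp fell with IL-13 (1.83-fold, log2 fold change -0.87 ± 0.259 SE, edgeR adjusted p = 0.00789) and with IL-4 (1.57-fold, -0.65 ± 0.254 SE, edgeR adjusted p = 0.0311). The call with IL-4 was lost when either control replicate 2 (edgeR adjusted p = 0.107) or replicate 3 (0.0958) was left out, and when IL-4 replicate 1 (0.0526), 2 (0.15) or 3 (0.0709) was left out, and with a trend in gene length and GC content (0.119). The value in IL-4+IL-6, -0.71 (edgeR adjusted p = 0.0204), was lost likewise without control replicate 2 (0.0703) or 3 (0.0632) and without IL-4+IL-6 replicate 1 (0.096) or 2 (0.118), in a fit of both groups alone (0.0652), with that trend (0.053) and without both libraries that stood apart (-0.45, edgeR adjusted p = 0.102). In IL-6+IL-13 the value against control was -0.41, with an interval from -0.91 to 0.09, and IL-13 against IL-4 gave -0.22, with an interval from -0.76 to 0.32. Addition of IL-6 gave log2 fold changes for Cp of -0.06 over IL-4, with an interval from -0.59 to 0.48, and 0.46 over IL-13, with an interval from -0.07 to 0.99. For IL-6+IL-13 against IL-4+IL-6, Cp gave 0.30 (edgeR adjusted p = 0.434), and 0.75 without IL-4+IL-6 replicate 3 (0.0243). Exons of Cp overlap those of Hps3 on the other strand, which had 12940 counts against 890 of Cp. Whether the counting used strand is not given in the sources used here, so reads of Hps3 could be part of the Cp counts.

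Hamp encodes hepcidin, the hormone that binds ferroportin, and in liver it is a textbook target of IL-6 through STAT3 (chr7:30942368-30944032, minus strand). It was at 0 counts in 13 of the 15 libraries. Control replicate 3 held 5 counts and IL-13 replicate 3 held 1. All libraries of IL-4+IL-6 and IL-6+IL-13 were at 0, and a count of 0 allows a level of up to 0.159 to 0.169 CPM at the depths of these 6 libraries (3 counts, counting error only). Hamp did not pass the filter on low counts and was not tested.

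Against control, Slc40a1 and Slc11a1 fell in all 4 cytokine groups and Slc48a1 rose in all 4. IL-4 changed 7 of the 9 genes tested, 2 higher and 5 lower (edgeR adjusted p under 0.05), where 68.0% of all 13938 genes tested were called, 32.1% higher and 35.9% lower. IL-13 changed 5, 1 higher and 4 lower, where 60.1% of all genes were called, 29.0% higher and 31.1% lower. IL-4+IL-6 changed 8, 4 higher and 4 lower, where 72.9% of all genes were called, 35.4% higher and 37.5% lower. IL-6+IL-13 changed 8 as well, 4 higher and 4 lower, where 64.0% of all genes were called, 31.9% higher and 32.1% lower. At 2-fold or more the count was 2 with IL-4 (26.1% of all genes) and 2 with IL-13 (20.3%), Slc40a1 and Slc11a1 in both. It was 4 with IL-4+IL-6 (33.0%) and 4 with IL-6+IL-13 (24.4%), with Tfrc and Hmox1 higher and Slc40a1 and Slc11a1 lower. The median log2 fold change of the genes was -0.29 with IL-4, -0.10 with IL-13, -0.34 with IL-4+IL-6 and -0.39 with IL-6+IL-13, against -0.05, -0.02, -0.05 and -0.01 over all genes tested. The 4 comparisons share the control libraries.

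**Figure D3:**
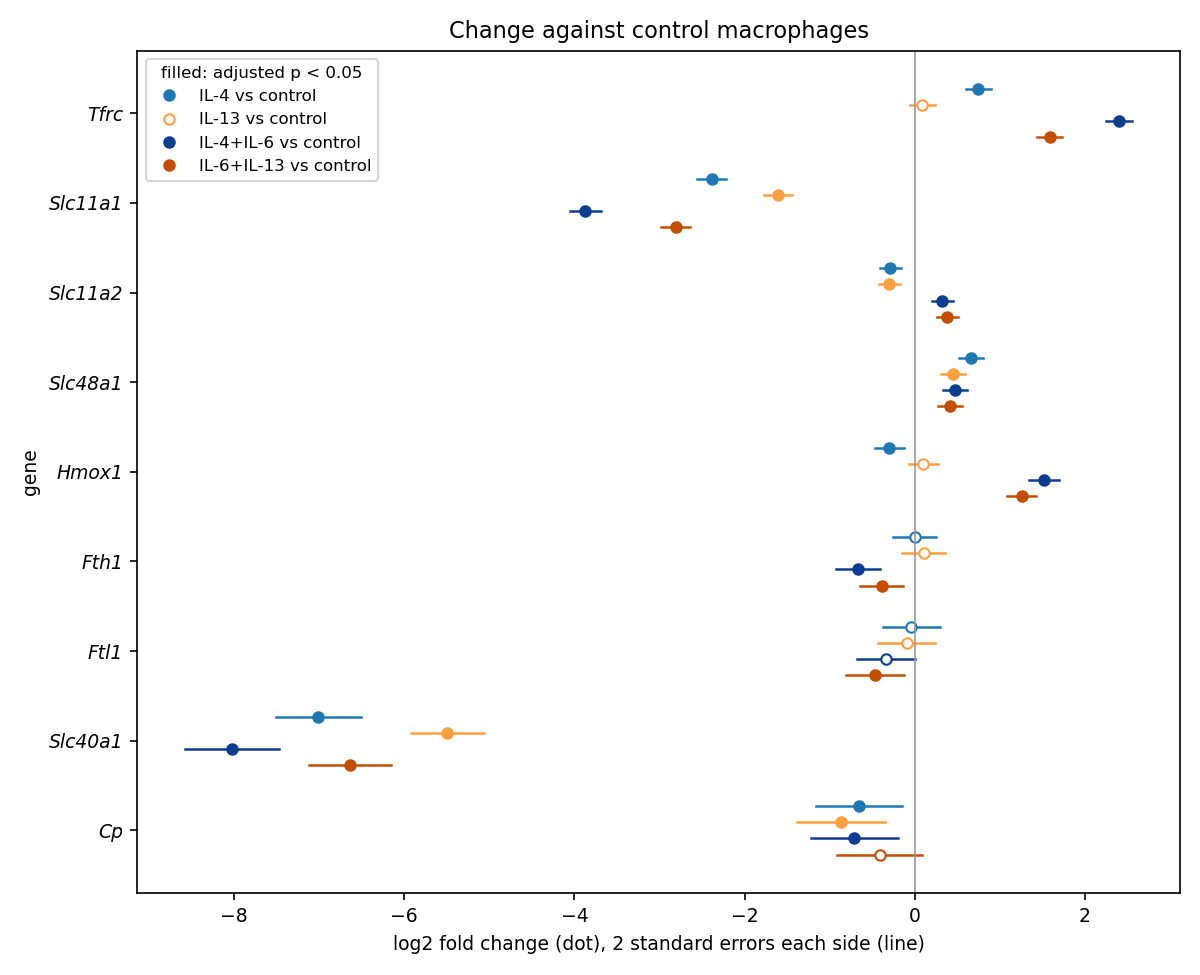
Log2 fold change against control of 9 genes, with a dot for each of the 4 cytokine groups and a line of 2 SE to each side. Filled dots passed the edgeR test with an adjusted p under 0.05. Slc40a1 lay furthest from 0, between -5.49 and -8.02, and Tfrc and Hmox1 were furthest to the right in the groups with IL-6.

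Addition of IL-6 raised the RNA of Tfrc, Slc11a2 and Hmox1 and lowered that of Fth1 and Slc11a1. Their proteins were not measured in these libraries. Over IL-4, 6 of the 9 genes were called, Tfrc, Hmox1 and Slc11a2 higher and Fth1, Slc11a1 and Slc48a1 lower, where 39.4% of all genes were called, 20.7% higher and 18.7% lower. Over IL-13, 6 were called as well, Tfrc, Hmox1 and Slc11a2 higher and Fth1, Slc11a1 and Slc40a1 lower, where 25.6% of all genes were called, 12.1% higher and 13.5% lower. At 2-fold or more these were 3 over IL-4 (11.8% of all genes), Tfrc, Hmox1 and Slc11a1, and 4 over IL-13 (7.25% of all genes), the same with Slc40a1. The replicates of both groups did not overlap for 6 genes in each comparison, against 46.7% and 37.7% of all genes. Without both libraries that stood apart, 7 genes were called over IL-4, where 42.9% of all genes in that fit were called, and 6 over IL-13, where 35.0% were. The log2 fold changes over IL-4 and over IL-13 were then 1.70 and 1.48 for Tfrc, -1.41 and -1.15 for Slc11a1, and 0.62 and 0.67 for Slc11a2, all called by edgeR.

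**Figure D4:**
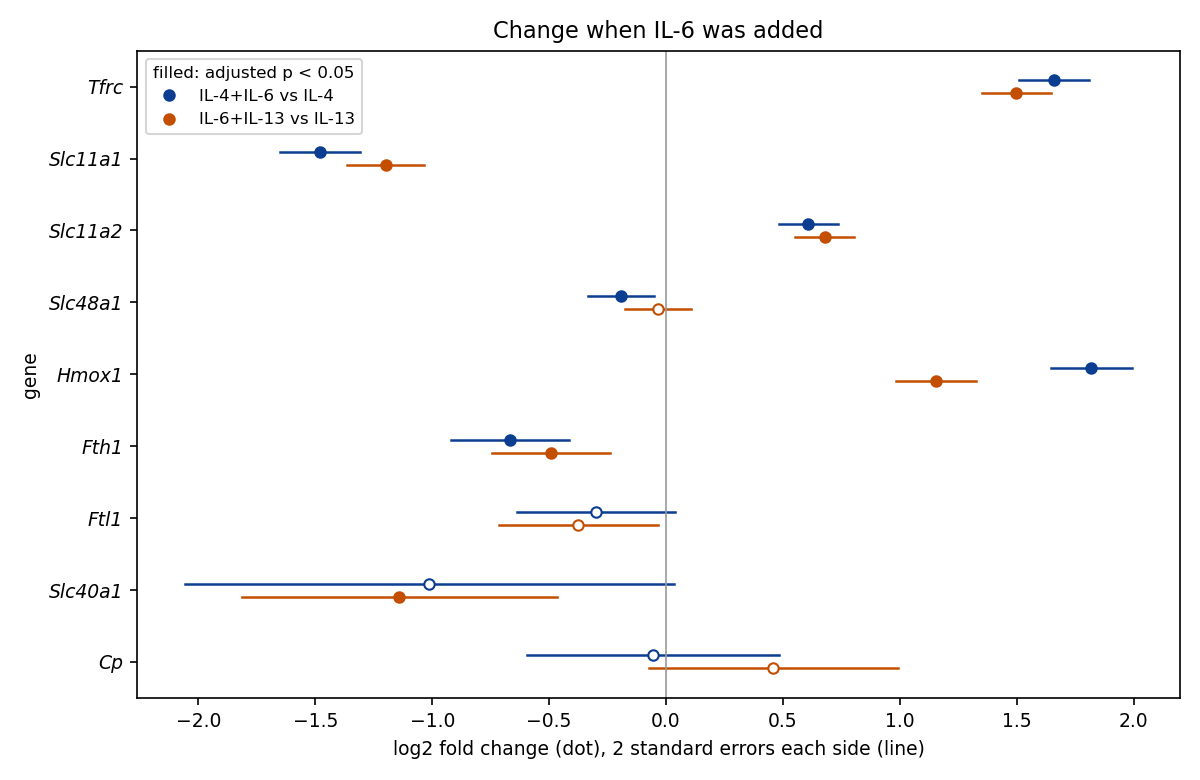
Log2 fold change on addition of IL-6 to IL-4 and to IL-13, with a dot for each gene and a line of 2 SE to each side. Filled dots passed the edgeR test with an adjusted p under 0.05. Tfrc and Hmox1 were above 1 in both, with Hmox1 at 1.82 and 1.15, and Slc11a1 was below -1 in both.

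The effects of IL-6 differed between IL-4 and IL-13 for 1 of the 9 genes, Hmox1, where 7.64% of all genes were called for such a difference. Without the libraries that stood apart, Hmox1, Fth1 and Ftl1 were called, where 17.6% of the 14261 genes tested in that fit were called. IL-13 differed from IL-4 in 4 genes, where 12.8% of all genes were called, 7.61% higher and 5.16% lower. Slc40a1, Slc11a1 and Hmox1 were higher with IL-13 and Tfrc was lower (1.58-fold, log2 fold change -0.66 ± 0.0736 SE, edgeR adjusted p = 7.83e-06), so that in all 4 genes IL-13 lay nearer to control than IL-4. For Slc48a1 this difference was -0.22 (edgeR adjusted p = 0.0505), which DESeq2 (adjusted p = 0.0177) and other settings called, and -0.29 without the libraries that stood apart (edgeR adjusted p = 0.000742). IL-6+IL-13 differed from IL-4+IL-6 in 4 genes, where 31.3% of all genes were called, 15.5% higher and 15.8% lower. Slc11a1 was 2.09-fold higher (log2 fold change 1.06 ± 0.0858 SE, edgeR adjusted p = 5.44e-08) and Tfrc 1.76-fold lower (-0.82 ± 0.073 SE, edgeR adjusted p = 1.67e-07), beside the calls for Slc40a1 and Hmox1 given above. That count was 2 without IL-6+IL-13 replicate 2. The doses of IL-4 and IL-13 differed, so these comparisons are of the treatments as given.

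A wider set of 58 genes of iron and heme handling was examined, of which 42 passed the filter on low counts. Against control, 12 were higher and 22 lower with IL-4 (32.1% and 35.9% of all genes), 10 and 21 with IL-13 (29.0% and 31.1%), 13 and 19 with IL-4+IL-6 (35.4% and 37.5%), and 14 and 18 with IL-6+IL-13 (31.9% and 32.1%). Ltf and Lcn2, which bind iron or its carriers, and Hp, whose product binds hemoglobin, fell with all cytokines. Ltf had 1491, 1641 and 1367 counts in control and 0 in every IL-4 and IL-4+IL-6 library, so that it was at least 500-fold lower in IL-4, measured against 3 counts per library. Lcn2 had 649, 609 and 545 counts in control and at most 10 in any other library. Hp was at 23.9 ± 2.16 normalized CPM in control and 1.81 ± 0.347 in IL-4 (n = 3). All of these are also products of granulocytes, whose markers moved with them. Spic, a factor of red pulp macrophages, which recycle iron, had 86, 94 and 78 counts in control and at most 2 in any other library.

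Ncoa4 encodes the receptor that delivers ferritin to lysosomes. It was at 304 ± 8.77 normalized CPM in control (n = 3), against 60.4 ± 3.79 in IL-4, 64.7 ± 8.46 in IL-13, 52.7 ± 9.43 in IL-4+IL-6 and 54.4 ± 8.30 in IL-6+IL-13. Its log2 fold change was -2.33 with IL-4 (edgeR adjusted p = 4.67e-11) and -2.23 with IL-13 (edgeR adjusted p = 1.17e-10). Bmp2, a signal that raises hepcidin, was at 23.1 ± 1.74 normalized CPM in control and 5.91 ± 0.839 in IL-4 (log2 fold change -1.97, edgeR adjusted p = 1.68e-09). Slc22a17, a receptor for Lcn2, was near the limit of detection, with 13, 23 and 14 counts in control and 5, 2 and 1 in IL-13. With IL-4 it had 10, 7 and 5 counts and with IL-4+IL-6 it had 2, 1 and 2 (log2 fold change -1.98 ± 0.645 SE, edgeR adjusted p = 0.0215), a call lost without IL-4 replicate 1 (0.0866) or IL-4+IL-6 replicate 2 (0.0726), without a filter on low counts (0.056) and without both libraries that stood apart (-1.76, edgeR adjusted p = 0.0649).

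When IL-6 was added, 11 of the 42 were higher and 7 lower over IL-4, where 20.7% of all genes were higher and 18.7% lower, and 11 were higher and 4 lower over IL-13, where 12.1% were higher and 13.5% lower. Slc39a8 and Slc39a14 encode ZIP8 and ZIP14, which take up iron that is not bound to transferrin. Slc39a8 was at 13.3, 12.8 and 12.3 normalized CPM in control, 13.1, 13.3 and 13.1 in IL-4, 132, 122 and 127 with IL-4+IL-6, 23.1, 22.5 and 20.8 in IL-13, and 106, 102 and 98.4 in IL-6+IL-13. With IL-6 it rose over IL-4 (log2 fold change 3.27 ± 0.071 SE, edgeR adjusted p = 1.49e-15) and over IL-13 (2.202 ± 0.0671 SE, edgeR adjusted p = 2.22e-13). Slc39a14 was at 13.5, 13.2 and 13.2 in control, 22.4, 20.0 and 20.0 in IL-4, 59.9, 49.9 and 61.3 with IL-4+IL-6, 37.9, 38.2 and 35.7 in IL-13, and 123, 126 and 112 in IL-6+IL-13. Its rise with IL-6 was 1.45 ± 0.0856 SE over IL-4 (edgeR adjusted p = 3.56e-10) and 1.69 ± 0.0823 SE over IL-13 (edgeR adjusted p = 5.97e-11). Between the groups with IL-6 the 2 transporters went opposite ways, as Slc39a14 was higher in IL-6+IL-13 than in IL-4+IL-6 (log2 fold change 1.08 ± 0.0804 SE, edgeR adjusted p = 2.16e-08) and Slc39a8 was lower (-0.32 ± 0.0618 SE, edgeR adjusted p = 0.000762).

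Cd163 encodes the scavenger receptor for hemoglobin bound to haptoglobin. Its level was 6.201, 8.48 and 8.30 normalized CPM in control, 16.2, 14.9 and 14.6 in IL-4, 221, 170.4 and 225 with IL-4+IL-6, 18.96, 27.8 and 24.8 in IL-13, and 71.5, 85.4 and 70.4 in IL-6+IL-13. No library of the groups with IL-6 overlapped any other. IL-6 raised Cd163 by a log2 fold change of 3.76 ± 0.149 SE over IL-4 (edgeR adjusted p = 2.01e-12) and of 1.67 ± 0.139 SE over IL-13 (edgeR adjusted p = 6.14e-08). It was 2.71-fold lower in IL-6+IL-13 than in IL-4+IL-6 (log2 fold change -1.44 ± 0.131 SE, edgeR adjusted p = 2.15e-07). Bach1, a heme sensor that represses Hmox1, was at 158 ± 5.07 normalized CPM in control, 71.0 ± 1.17 in IL-4, 151 ± 21.2 in IL-4+IL-6, 80.7 ± 10.8 in IL-13 and 125 ± 11.6 in IL-6+IL-13 (n = 3). It thus rose together with Hmox1 when IL-6 was added (log2 fold change 1.09 ± 0.104 SE over IL-4, edgeR adjusted p = 1.64e-07, and 0.64 ± 0.103 SE over IL-13, edgeR adjusted p = 0.000137). Hfe, which binds the transferrin receptor, was at 81.6 ± 3.28 in IL-4, 151 ± 7.68 in IL-4+IL-6, 53.5 ± 3.51 in IL-13 and 120 ± 3.93 in IL-6+IL-13 (n = 3), and rose by 1.16 ± 0.0684 SE over IL-13 (edgeR adjusted p = 7.16e-10). Abcg2, which exports heme and porphyrins, fell by 1.17 on the log2 scale over IL-4 (edgeR adjusted p = 1.63e-07). Lrp1, a receptor for heme bound to hemopexin, was at 962, 641 and 1134 with IL-4+IL-6 and 2050, 2400 and 2257 in IL-6+IL-13 (log2 fold change 1.29 ± 0.167 SE, edgeR adjusted p = 1.29e-05). Hp rose from 0.916 ± 0.138 normalized CPM in IL-13 to 1.99 ± 0.598 in IL-6+IL-13 (log2 fold change 1.11 ± 0.254 SE, edgeR adjusted p = 0.00318).

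**Figure D5:**
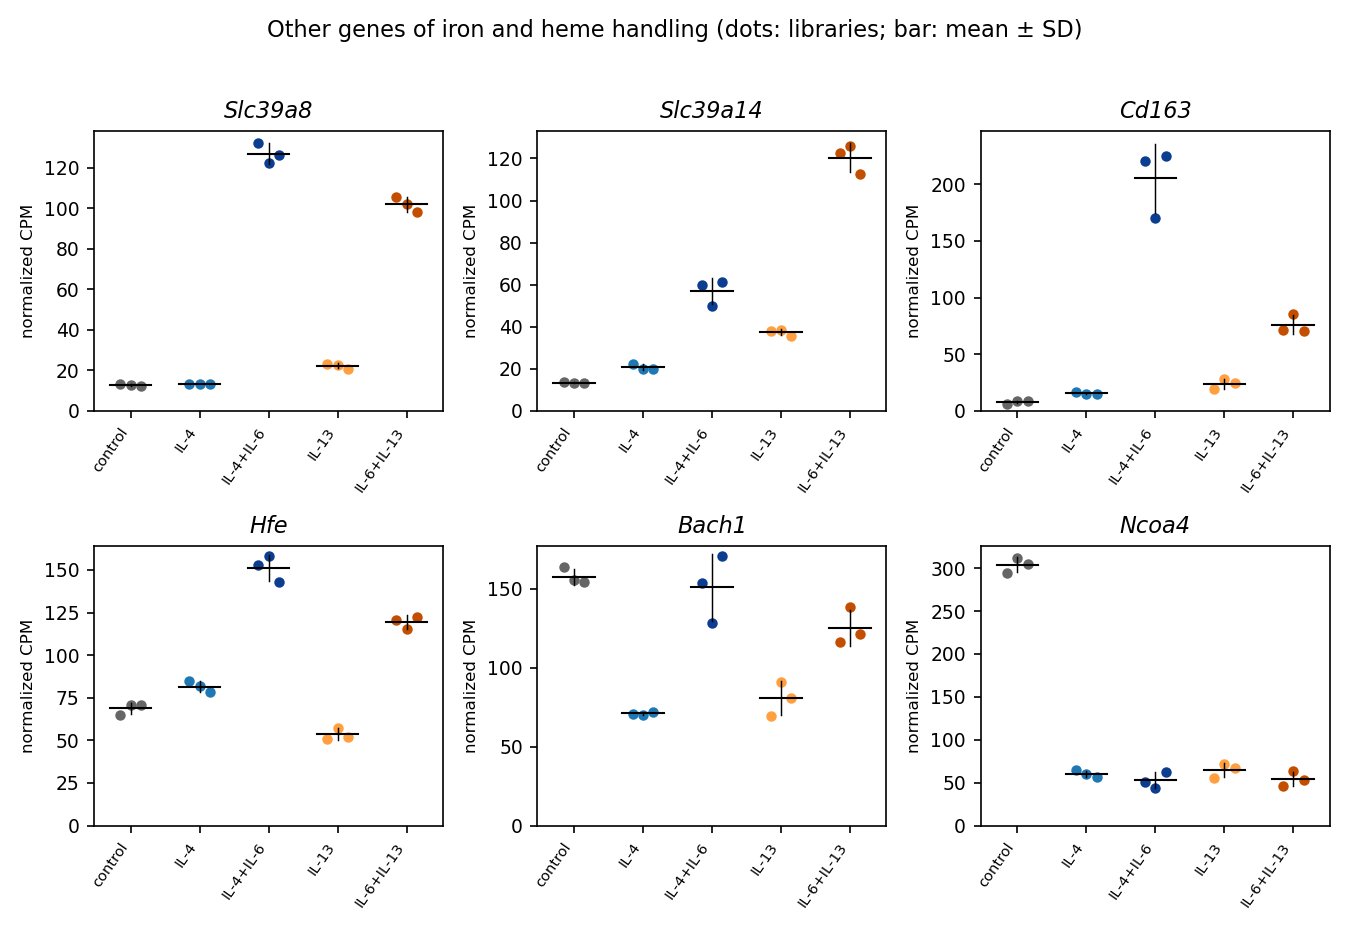
Normalized CPM (linear axes from 0) of 6 further genes in the 5 groups, with a dot for each library, a horizontal bar for the mean and a vertical bar for the SD (n = 3). Slc39a8, Slc39a14, Cd163 and Hfe were highest in the groups with IL-6, and Ncoa4 was at 295 to 312 in control and at 44.3 to 71.4 elsewhere.

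The wider set was also counted by list, against 20.7% of all genes higher and 18.7% lower over IL-4 and 12.1% and 13.5% over IL-13. Of 6 genes of iron sensing and hepcidin control, 5 were higher and 0 lower over IL-4 (Aco1, Ireb2, Hfe, Bmp2 and Epas1), and 5 were higher and 0 lower over IL-13 (Aco1, Fbxl5, Hfe, Bmp2 and Epas1), names given after their values were seen. The median log2 fold change of this list was 0.50 and 0.45, against 0.04 and 0.01 over all genes. Aco1 and Ireb2 encode the iron regulatory proteins that bind the hairpins shown above, and their changes were small, with log2 fold changes of 0.18 ± 0.0642 SE (edgeR adjusted p = 0.034) and 0.26 ± 0.0948 SE (edgeR adjusted p = 0.0413) over IL-4. Before scaling, replicate 2 of IL-4+IL-6, which stood apart, had 2053 counts of Aco1 and 1328 of Ireb2, each within the range of IL-4. Over IL-13 Aco1 rose by 0.35 ± 0.0645 SE (edgeR adjusted p = 0.000498). These fold changes of Aco1 and Ireb2 were not recomputed under the alternatives. Of 13 genes of heme synthesis, 2 were higher over IL-4 and 1 was higher over IL-13, and 0 were lower in both. Of other heme uptake, transport and breakdown genes, 2 were higher and 5 lower over IL-4, and 3 higher and 3 lower over IL-13, of 12 tested. Of 8 other iron uptake genes, 2 were higher and 2 lower over IL-4, and 2 higher and 1 lower over IL-13. Of 3 genes of storage, turnover and oxidation, none was called in either (edgeR).

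The patterns most like those of the genes with the widest ranges were sought among all genes tested, by the root mean square difference of centred log2 group means over the 5 groups. For Slc40a1 (range 7.81 on the log2 scale) these were Cd4, Mpo and Mrvi1, with differences of 0.43, 0.58 and 0.59. Each of these was at most at 0.464 normalized CPM in any cytokine library, near the limit of detection. Their likeness to Slc40a1 thus rests mostly on the step from control. Mpo is one of the granulocyte markers, at 25.7 ± 4.28 normalized CPM in control and at most at 0.428 in any other library. For Slc11a1 (range 3.87) they were Gm15922, Cenpa and Bach2os, with differences of 0.12, 0.13 and 0.15. For Tfrc (range 2.40) they were Rhoh, Mcoln2 and Snx6, with differences of 0.11, 0.12 and 0.13. Rhoh, for instance, was at 11.3 ± 0.567 normalized CPM in control, 21.5 ± 0.442 in IL-4, 65.0 ± 5.15 in IL-4+IL-6, 15.2 ± 1.38 in IL-13 and 38.9 ± 1.55 in IL-6+IL-13 (n = 3).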

How the data were processed

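RNA of 15 BMDM samples was sequenced by a service company. The authors deposited raw counts per gene and, per library, FPKM values, which equal the deposited count divided by a gene length and by the library total. The submitters' processing notes name CASAVA, Bowtie2 2.2.3, HISAT2 2.1.0, TopHat2, DESeq2 and build GRCm38, without roles. The counting tool, annotation version and strand setting are not given in the sources used here. Counts were tested with edgeR 4.0.16 in R 4.3.3 (filterByExpr with a minimum count of 10, TMM factors, glmQLFit and glmQLFTest, Benjamini-Hochberg adjustment over 13938 genes) in one fit of all libraries without covariates. A call is an adjusted p under 0.05. Each SE was derived as the absolute log2 fold change divided by the square root of the F statistic of its test. Such SE values and the intervals of 2 SE are approximate, and can be too small for large changes at low counts. Levels are TMM-normalized CPM, compared between genes only as FPKM. The labels number replicates, and the methods speak of independent experiments and biological replicates for the study as a whole. A supplementary legend on the RNA sequencing with IL-4 and IL-4+IL-6 calls every dot of its principal component plot a biological replicate. Which libraries came from separate cultures or animals is not given per library in the sources used here, so p-values measure the spread between these samples, part of which may be technical. A promoter search and a detail of the mice are not reported here.

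The genes described and the lists were chosen with earlier results of these data known. The rule for named genes takes all 10 genes, of which Hamp was not tested. From the wider lists, up to 6 genes per comparison are named, called with a log2 fold change of 1 or more and replicates that do not overlap, together with the 3 genes most like each of the 3 genes with the widest range. Alternatives were DESeq2 1.42.0, upper-quartile factors, library totals, other filters, a replicate block, fits of the groups compared alone and each library left out. A length and GC trend and the joint omission of 2 libraries were chosen after seeing the data. The fit was tested on simulated data of 13506 genes, where 177 of 200 changed genes were called for IL-4 against control, beside 5 others. Only these 200 genes were changed there, in IL-4 alone and with as many raised as lowered. The simulation therefore does not show how scaling and fit behave where most genes are called, as against control here.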

Additional observations from a re-analysis of the deposited data

Results flagged for a closer look

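The effect of IL-6 differed between its addition to IL-13 and its addition to IL-4, by a test of the interaction, for Hmox1 among the genes described and for a few others of the pathway (edgeR quasi-likelihood test, adjusted over all genes). For Hmox1 the difference was -0.67 on the log2 scale (adjusted p = 0.00157), with a rise of 1.15 over IL-13 and of 1.82 over IL-4. Cd163 differed by -2.09 (edgeR adjusted p = 3.21e-06) and Slc39a8 by -1.07 (edgeR adjusted p = 2.01e-06), both with a larger rise over IL-4. Abcg2 differed by 0.61 (edgeR adjusted p = 0.0205), with a fall of 1.17 over IL-4 and of 0.56 over IL-13, and is named after its value was seen. The groups hold 3 libraries each, so single libraries were not tested as outliers.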

How the results depend on the processing

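The 81 fold changes of the genes described were recomputed under the alternatives, which gave 1268 values. Of these, 1158 kept direction and side of the threshold, 37 lost a call, 36 gained one with the same sign and 37 changed sign. Among the sign changes, Fth1 with IL-4 against control also passed the threshold with the length and GC trend (-0.23, edgeR adjusted p = 0.00863). So did Ftl1 for the difference between IL-6 effects without both libraries that stood apart (0.38, edgeR adjusted p = 0.048). In all, 39 of the 49 calls held in every alternative. Of 282 counts of called genes, 269 stayed within 1.5 times. The cause of the changes below was not tested. Between IL-6+IL-13 and IL-4+IL-6, 2 of the genes described were called when these groups were fitted alone, against 4, and 2 to 4 when single libraries were left out. For the difference between the IL-6 effects, 3 were called without both libraries that stood apart, against 1. Of the wider set, 3 were called for this difference, 5 with DESeq2, 5 with upper-quartile factors, 6 without a filter, 6 with the length and GC trend, 12 without both libraries, and 2 to 6 with single libraries left out, where calls over all genes went from 1065 to 2514 without both. For IL-13 against IL-4, 11 were called, 22 without both libraries, and 6 to 12 with single libraries left out, where calls over all genes went from 1779 to 4732 without both.

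Signs changed for values that had not been called. Fth1 with IL-4 against control was -0.0459 with library totals, -0.0145 with a filter of 1 CPM and -0.23 with the length and GC trend, and Fth1 with IL-13 was -0.0024 with that trend. Ftl1 with IL-4 was 0.037 without a filter and 0.0013 without both libraries. Without both, Cp was 0.16 and Slc48a1 0.0163 on addition of IL-6 to IL-4 and to IL-13, Fth1 was -0.0425 for IL-13 against IL-4, and Ftl1 was 0.11 for IL-6+IL-13 against IL-4+IL-6 and 0.38 for the difference between IL-6 effects. For IL-13 against IL-4, Ftl1 was 0.0444 with the trend and Slc11a2 0.0067 with library totals. With single libraries left out, values against control ranged from -0.0169 to 0.0627 (Fth1, IL-4), -0.0461 to 0.0168 (Ftl1, IL-4), -0.0003 to 0.22 (Fth1, IL-13) and -0.26 to 0.0532 (Ftl1, IL-13). On addition of IL-6 they ranged from -0.52 to 0.16 (Cp, IL-4) and -0.0975 to 0.0259 (Slc48a1, IL-13). For IL-13 against IL-4 they ranged from -0.0426 to 0.20 (Fth1), -0.26 to 0.0813 (Ftl1) and -0.0585 to 0.0126 (Slc11a2). For IL-6+IL-13 against IL-4+IL-6 they ranged from -0.28 to 0.11 (Ftl1) and -0.10 to 0.0134 (Slc48a1), and for the difference between IL-6 effects from -0.54 to 0.35 (Slc40a1) and -0.23 to 0.17 (Ftl1).

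Same-numbered replicates did not deviate together (correlations from -0.276 to 0.163, 3 of 30 above 0.1). A replicate block gave 3 calls for IL-6+IL-13 against IL-4+IL-6, against 4, as that of Slc40a1 was lost (edgeR adjusted p = 0.0552), and changed no other count of the genes described. With library totals the median of all genes in IL-4+IL-6 against control moved from -0.05 to -0.19. The share of higher calls over all genes moved, for IL-4+IL-6 against IL-4, from 52.6% to 39.0% with upper-quartile factors and 38.0% with library totals, for IL-6+IL-13 against IL-13 from 47.3% to 35.3% with library totals, and for the difference between IL-6 effects from 57.8% to 68.3% with upper-quartile factors and 68.5% without a filter. Depth limits Hamp, Cp and the Slc40a1 levels under cytokines.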
